A study of Homo sapiens with 29 samples.

Results

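The comparison described here sets 4 tumours of a paclitaxel-resistant breast cancer line against 4 tumours of its parental line, all from mice that received only the vehicle solution, and it uses 8 of the 29 libraries of the study. The members were the libraries whose titles carry B_veh (resistant) and A_veh (parental), and no measured value entered the choice. The parental line is MDA-MB-231, established from a human breast carcinoma without hormone receptors or HER2 amplification and mesenchymal in shape, and the resistant line is its paclitaxel-resistant derivative. Resistant tumours grew from 1500000 cells injected on both sides into the mammary site of SCID-beige mice and were treated from day 16, and parental tumours grew from 250000 cells and were treated from day 6. Dosing ran over 26 days as 2 cycles, each 12 days long, with 2 days between them. The mice lack mature T and B cells. Which tumours came from the same mouse is not labelled, so p-values measure only the spread among the tumours sampled, some of which could share a host. The line cannot be told apart from the number of cells injected or from the age of the tumour. The labels do not say whether the resistant line is 1 clone. The stated purpose of the study was to ask whether resistance goes with expression changes tied to DNA methylation. The other 21 libraries come from the same 2 kinds of tumour under decitabine (0.4 mg/kg), doxorubicin (1 mg/kg) or both, and they serve below as libraries that the vehicle comparison did not use.

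Paclitaxel binds β-tubulin, freezes microtubules and stops cells in mitosis. Cells that survive long exposure are known to do so through drug efflux pumps, through altered tubulins and tubulin-binding proteins, or through changes in the mitotic checkpoint and in apoptosis. A line selected for long periods can also carry differences that have no part in resistance.

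Libraries were read from the 3′ end of polyadenylated RNA, which makes a count independent of gene length, and held 3892678 to 4513171 counts in resistant tumours and 4022389 to 4666413 counts in parental tumours. Levels are given as CPM, the count scaled by the size of its library, and differences as fitted log2 folds of resistant over parental tumours with their standard error (SE). Calls required an adjusted p below 0.05 in edgeR's quasi-likelihood test with Benjamini-Hochberg adjustment, the source of all adjusted p-values below. The first principal component of the 2000 most variable genes held 55.7% of the variance and placed the resistant libraries at 23.28 to 30.47 and the parental libraries at -39.39 to -20.47. The second held 13.1%, and parental vehicle 3, at 28.48, stood apart on it. That library was at 3.60 CPM of TMSB4X, 7.97 CPM of PFN1 and 16.7 CPM of SLC25A5, where the other 3 parental libraries reached at least 35.4, 46.8 and 107 CPM. These 3 genes were chosen after their values were seen, and TMSB4X and SLC25A5 have near-identical copies in the genome. Without that library 2037 genes were called in place of 2718, the lowest count when any 1 of the 29 libraries was left out. The line's own markers were present: VIM, CD44, EGFR, MET, FOSL1 and CAV1 were counted in every library. PGR and CDKN2A, which is deleted in MDA-MB-231, had no count in any of the 8 libraries, and ESR1 had 18 counts in the resistant group and 8 in the parental one.

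Of 13495 genes tested, 2718 were called (20.1%), 1168 of them higher in resistant tumours (8.66%) and 1550 lower (11.5%), and the CPM of the groups did not overlap for 3011 genes (22.3%). Long non-coding RNAs and protein-coding genes were not called in the same proportions. Of 1054 long non-coding RNAs, 166 were higher and 33 lower, with a median log2 of 0.29, whereas 977 of 11651 protein-coding genes were higher and 1489 lower, with a median of 0.00. Annotated pseudogenes, whose reads may belong to their parent genes, had 16 higher and 21 lower of 594. The median over all genes tested was 0.02.

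**Figure D1:**
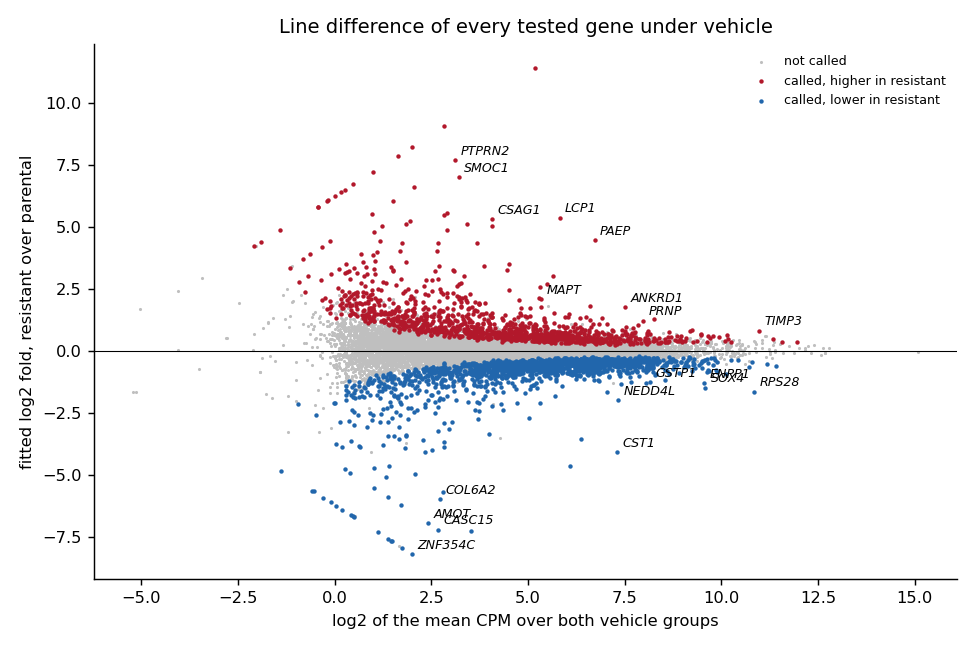
Fitted log2 fold of resistant over parental vehicle tumours (vertical axis) against the log2 of the mean CPM over the 2 groups (horizontal axis), with 1 point for each gene drawn, out of the 13495 tested. Genes at 0 CPM in both groups are not drawn, and a symbol held by more than 1 gene is drawn once. Red points are called higher and blue points lower in resistant tumours, grey points are not called.

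The same line difference could be read in libraries that the vehicle comparison did not use, although all libraries shared 1 fit and its estimate of spread. Of the 1168 genes higher under vehicle, 634 were also called higher under decitabine, 482 under doxorubicin and 525 under both drugs, where 13.7%, 5.88% and 10.6% of all genes tested were called higher. These were 54.3%, 41.3% and 44.9% of the vehicle list, and 34.3%, 60.8% and 36.8% of the lists called higher under the drugs. Of the 1550 genes lower under vehicle, 876, 750 and 691 were called lower again, against 13.1%, 8.05% and 11.4% of all genes tested, which was 56.5%, 48.4% and 44.6% of the vehicle list and 49.6%, 69.1% and 45.1% of the drug lists. Called higher in all 4 treatments were 330 genes, and called lower in all 4 were 450. At a log2 of 1 or more in size, 822 genes were called (6.09%). For the 471 of these that were higher, the median log2 was 1.60 under vehicle, where they were chosen, and 1.42, 1.37 and 1.17 under decitabine, doxorubicin and both.

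A few transcripts were on in the tumours of 1 line and next to absent in those of the other. Because the study asks about DNA methylation, which in human cells sits on the cytosine of CpG pairs, the 250 bases before the start of 3 such protein-coding genes are printed, from RefSeq on GRCh38.p14 and read along the strand of the gene, with every CpG in capitals. SMOC1, which was on in resistant tumours, has 17 CpG at chr14:69879166-69879415 (plus strand). AMOT and COL6A2, which were on in parental tumours, have 22 CpG at chrX:112840832-112841081 (minus strand) and 28 CpG at chr21:46097862-46098111 (plus strand).
SMOC1: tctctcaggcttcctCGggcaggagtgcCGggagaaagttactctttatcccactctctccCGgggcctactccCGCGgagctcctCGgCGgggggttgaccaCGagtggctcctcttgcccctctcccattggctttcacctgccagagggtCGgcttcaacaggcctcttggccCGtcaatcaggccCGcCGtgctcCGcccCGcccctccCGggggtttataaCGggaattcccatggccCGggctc
AMOT: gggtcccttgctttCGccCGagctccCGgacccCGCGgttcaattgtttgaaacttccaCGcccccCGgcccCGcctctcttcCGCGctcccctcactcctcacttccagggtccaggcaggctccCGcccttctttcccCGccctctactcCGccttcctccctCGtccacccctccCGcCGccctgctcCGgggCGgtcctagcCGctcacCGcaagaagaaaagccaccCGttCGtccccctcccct
COL6A2: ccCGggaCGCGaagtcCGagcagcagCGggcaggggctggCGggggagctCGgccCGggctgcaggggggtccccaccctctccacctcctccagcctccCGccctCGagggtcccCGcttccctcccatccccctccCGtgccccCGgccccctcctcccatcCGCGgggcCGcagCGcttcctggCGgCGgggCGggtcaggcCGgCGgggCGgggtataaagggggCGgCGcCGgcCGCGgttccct
The median over 9535 tested protein-coding genes with a promoter in the table was 21 CpG, and 99.21% of them held at least 1 (a CpG reads the same on both strands). Genes called with a log2 of at least 1 had fewer, with a median of 14 CpG for the 238 that were higher in resistant tumours and 16 for the 229 that were lower. DNA methylation itself was not measured here.

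SMOC1, a secreted calcium-binding protein that antagonises bone morphogenetic proteins, was at 15.1, 23.6, 14.9 and 19.7 CPM in resistant tumours, against 0, 0, 0.514 and 0 CPM in parental tumours. Its 308 counts in the resistant group stood against 2 in the parental one, a ratio of 156 (exact 95% interval 43 to 1300). It was present in all 4 resistant libraries and in 1 parental library. Under decitabine SMOC1 averaged 5.37 CPM in resistant tumours and 0.239 CPM in parental tumours. PTPRN2, a phosphatase-like protein of secretory granules, was at 30.6, 11.9, 19.9 and 7.01 CPM in resistant tumours, against 0, 0, 0 and 0.228 CPM in parental tumours, or 292 counts against 1. The long non-coding RNA LINC00470 had 241 counts in the resistant group and 0 in the parental one, which makes it at least 81.6-fold higher when 3 counts per group are taken as the floor.

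The reverse pattern was held by AMOT, COL6A2 and CASC15. AMOT encodes angiomotin, a junction protein that holds the coactivator YAP in the cytoplasm, and was at 0, 0, 0 and 0.226 CPM in resistant tumours, against 11.1, 10.9, 11.1 and 9.58 CPM in parental tumours. Its 1 count in the resistant group stood against 183, so that the parental group had 180 times as many (exact 95% interval 31.9 to 7150). COL6A2, a chain of collagen VI, was at 0, 0.507, 0.226 and 0 CPM in resistant tumours, against 13.7, 10.2, 8.49 and 19.8 CPM in parental tumours. Every parental library lay above every resistant library for both genes. Under decitabine AMOT averaged 0 CPM in resistant tumours and 8.47 CPM in parental tumours, and COL6A2 averaged 1.03 CPM in resistant tumours and 16.4 CPM in parental tumours. The long non-coding RNA CASC15, encoded next to SOX4 on chromosome 6, was at 0, 0, 0.226 and 0 CPM in resistant tumours, against 6.26, 12.8, 13.6 and 18.5 CPM in parental tumours. ID4, an inhibitor of helix-loop-helix factors, had 1 count in the resistant group and 88 in the parental one.

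**Figure D2:**
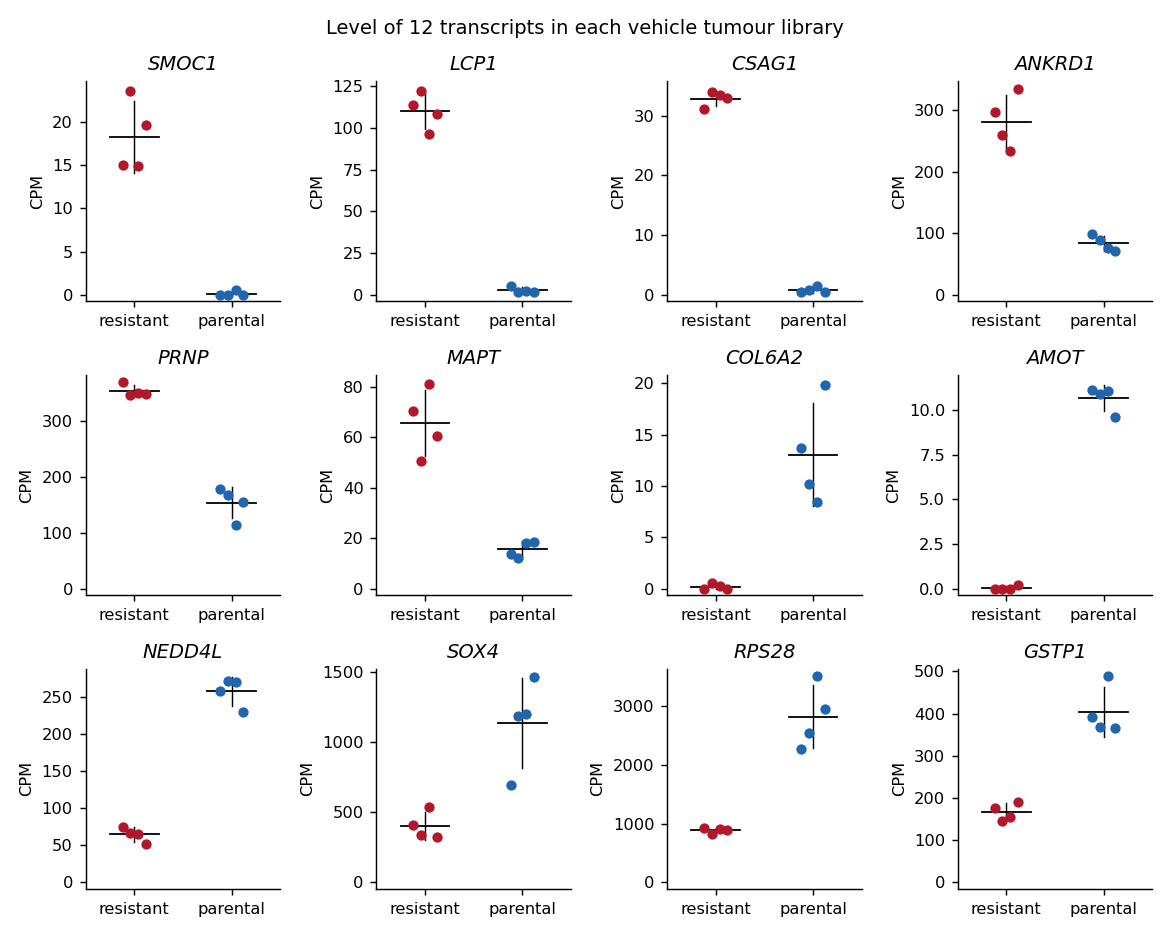
CPM of 12 transcripts in the vehicle libraries (vertical axes, all from 0), with resistant tumours in red and parental tumours in blue. Each point is 1 library, the horizontal line is the group mean and the vertical line 1 SD to each side, and no resistant point lies at the level of a parental point in any of the 12 panels.

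Some transcripts with counts in both lines also differed by a wide margin. LCP1 (ENSG00000136167), which bundles actin, normally in leukocytes and also in some carcinomas, was at 114, 122, 96.5 and 108 CPM in resistant tumours, against 5.33, 1.52, 2.06 and 1.82 CPM in parental tumours. The difference was log2 5.35, SE 0.33, adjusted p = 2.04e-11, and under decitabine, doxorubicin and both it was 4.02, 4.86 and 4.44 log2. CSAG1, a cancer-testis transcript of chromosome X, was at 31.1, 34, 33.5 and 33 CPM in resistant tumours, against 0.464, 0.869, 1.54 and 0.456 CPM in parental tumours, with log2 5.29, SE 0.35, adjusted p = 2.74e-11. The 4 resistant libraries of CSAG1 lay close together, and all parental libraries lay far below them. MAGEA12 and MAGEH1, members of the MAGE family, rose by 5.53 (SE 0.56) and 5.45 (SE 0.56).

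Several of the genes with the largest rises encode secreted or surface proteins. F2RL2, a protease-activated receptor, was at 34.2, 29.6, 36.6 and 30.7 CPM in resistant tumours, against 2.55, 0.435, 0 and 0.913 CPM in parental tumours (log2 5.02, SE 0.43, adjusted p = 2.94e-09). PAEP, the secreted glycoprotein glycodelin, was at 282, 241, 138 and 147 CPM in resistant tumours, against 2.09, 13, 15.7 and 6.39 CPM in parental tumours. Its resistant libraries differed among themselves and all lay above the parental ones (log2 4.45, SE 0.72, adjusted p = 0.000112). CLEC11A, a secreted growth factor, DMKN, an epidermal secreted protein, and PTH1R, the receptor for parathyroid hormone, rose by 5.09, 4.35 and 4.03 log2 (SE 0.45, 0.35 and 0.34). XIRP2, an actin-binding protein of muscle, was at 41.5 ± 6.36 CPM in resistant tumours and 3.66 ± 0.608 CPM in parental tumours (SD, n = 4 each; log2 3.49, SE 0.24, adjusted p = 3.05e-11).

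Among the largest falls were cystatins, which inhibit cysteine proteases. CST1 was at 15.1, 3.55, 34.1 and 16.5 CPM in resistant tumours, against 217, 309.9, 235 and 439 CPM in parental tumours (log2 -4.10, SE 0.56, adjusted p = 1.72e-05). CST4, encoded beside it on chromosome 20, was at 7.28, 2.28, 9.27 and 2.03 CPM in resistant tumours, against 25, 96, 287 and 118 CPM in parental tumours (log2 -4.64, SE 0.70, adjusted p = 5.01e-05). Both were lower in all 4 resistant libraries, but CST4 varied widely among parental libraries, and the 2 transcripts are similar enough that reads could be shared. Under decitabine the line difference of CST4 was -0.53 log2 and was not called (adjusted p = 0.551). AGR2, a disulphide isomerase of secretory epithelium, was at 0.243, 1.52, 1.58 and 0.226 CPM in resistant tumours, against 7.42, 11.5, 9.77 and 24.4 CPM in parental tumours (log2 -3.87, SE 0.48, adjusted p = 1.61e-06). KCNK6, a potassium channel, was at 1.01 ± 0.239 CPM in resistant tumours and 13.1 ± 0.945 CPM in parental tumours and fell by 3.67 log2 (SE 0.27). SESN3, a stress-induced regulator of growth signalling, was at 2.85 ± 1.9 CPM in resistant tumours and 29.2 ± 6.01 CPM in parental tumours and fell by 3.37 (SE 0.28). RADX, which binds single-stranded DNA at replication forks, was at 1.51 ± 0.659 CPM in resistant tumours and 14 ± 1.23 CPM in parental tumours and fell by 3.17 (SE 0.28). PLCB4, a phospholipase C, fell by 4.01 (SE 0.45).

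Abundant transcripts also differed. RPS28, a ribosomal protein, was at 932, 833, 902 and 893 CPM in resistant tumours, against 2270.3, 2546, 3505 and 2949 CPM in parental tumours (log2 -1.66, SE 0.15, adjusted p = 5.56e-09), and reads of its processed copies could have been split between genes. Of 84 cytosolic ribosomal protein genes tested, 8 were higher and 5 lower, with a median log2 of 0.18, where 8.66% of all genes tested were higher and 11.5% lower. Without resistant vehicle 1 or parental vehicle 3 the 8 became 2, and without resistant vehicle 2 or 3 or parental vehicle 4 the 5 became 3. SOX4, a transcription factor of progenitor cells, was at 407, 339, 537 and 323 CPM in resistant tumours, against 695, 1185, 1202 and 1465 CPM in parental tumours (log2 -1.50, SE 0.20, adjusted p = 2.95e-06). ENPP1, a surface enzyme that hydrolyses extracellular ATP and cyclic GMP-AMP, was at 371, 419.6, 432 and 487 CPM in resistant tumours, against 1032, 1125, 1219.8 and 908 CPM in parental tumours (log2 -1.33, SE 0.19, adjusted p = 1.5e-05). In each case the highest resistant library was below the lowest parental one. GSTP1, a glutathione transferase whose promoter is a classical target of DNA methylation, was at 176, 145, 154 and 191 CPM in resistant tumours, against 393, 368, 489 and 365 CPM in parental tumours (log2 -1.28, SE 0.14, adjusted p = 2.71e-07). NR2F1, an orphan nuclear receptor, was at 152 ± 41 CPM in resistant tumours and 378 ± 94.8 CPM in parental tumours and fell by 1.31 (SE 0.21), and its antisense neighbour NR2F1-AS1 fell by 0.77 (SE 0.16). Reads of the pair can be told apart only if counting used the strand, which is not given in the sources used here.

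In the other direction, PRNP, the prion protein, was at 369.5, 346, 350.5 and 347 CPM in resistant tumours, against 177, 168, 114 and 154 CPM in parental tumours (log2 1.20, SE 0.14, adjusted p = 3.08e-07). C12orf75 was at 370.0, 438, 389 and 534 CPM in resistant tumours, against 244, 189, 129 and 147 CPM in parental tumours (log2 1.29, SE 0.20, adjusted p = 4.39e-05). SIGLEC15, a lectin of the sialic-acid-binding family, was at 266, 154, 109 and 75.5 CPM in resistant tumours, against 39.2, 40.9, 59.9 and 35.4 CPM in parental tumours. Its resistant libraries varied, and the lowest stood above the highest parental one (log2 1.79, SE 0.30, adjusted p = 0.000118). TNNT1, a troponin of slow muscle, was at 171 ± 31.9 CPM in resistant tumours and 68.5 ± 4.71 CPM in parental tumours and rose by 1.32 (SE 0.12).

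The line difference was not spread evenly over the genome. On chromosome 18, 76 of 173 protein-coding genes tested were lower in resistant tumours (43.9%) and 5 were higher, and the median log2 of the chromosome was -0.47. In log2 of CPM + 2, set against the mean of the 8 libraries, the median of chromosome 18 was -0.19, -0.21, -0.19 and -0.17 in the 4 resistant libraries, against 0.19, 0.23, 0.20 and 0.23 in the 4 parental libraries. The groups did not overlap, and the pooled SD within groups was 0.0179. The shares lower were also high on chromosome 6 (173 of 610, 28.4%), chromosome 1 (275 of 1172, 23.5%), chromosome 4 (97 of 440, 22%) and chromosome 8 (78 of 414, 18.8%). Together these 5 chromosomes held 24.1% of the protein-coding genes tested, 46.9% of those lower and 14% of those higher. They were picked because their shares lower were the highest, so these sums are a description. In them 699 of 2809 genes were lower. Chromosome 9 went the other way, with 102 of 461 genes higher (22.1%), 13 lower and a median log2 of 0.29. On chromosomes 22 and 20, 14.6% of the genes were higher on each.

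**Figure D3:**
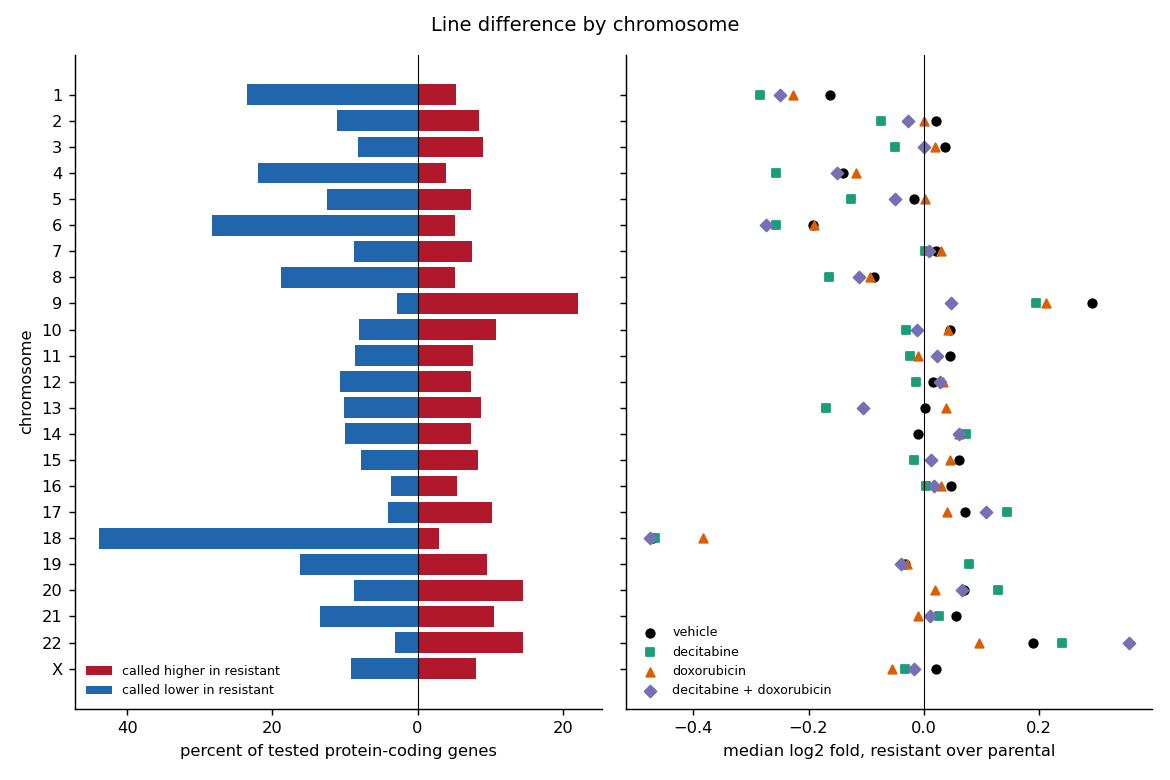
Share of the tested protein-coding genes of each chromosome called lower (blue, to the left) or higher (red, to the right) in resistant tumours under vehicle, in percent, and the median log2 fold of resistant over parental tumours of each chromosome (right) under vehicle, decitabine, doxorubicin and both. Chromosome 18 lies between -0.48 and -0.38 in all 4 treatments, and chromosome 9 lies above 0 in all 4.

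The chromosome medians were also read in the libraries under drugs. Chromosome 18 was at -0.47 under decitabine, -0.38 under doxorubicin and -0.48 under both. Chromosome 6 was at -0.26, -0.19 and -0.27, chromosome 1 at -0.29, -0.23 and -0.25, and chromosome 9 at 0.20, 0.21 and 0.05. In the fits with 1 library left out or another scaling, the vehicle median of chromosome 18 stayed between -0.49 and -0.43, and that of chromosome 9 between 0.27 and 0.33.

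Within chromosomes, the shift came in long runs of neighbouring genes. Windows of 20 consecutive tested genes were slid along each chromosome, and windows with a median past 0.3 log2 were joined where at least 30 stood in a row, a rule chosen after the profiles were seen. It gave 11 runs lower and 3 runs higher in resistant tumours. The 11 lower runs held 786 genes (6.8% of those placed), 413 of them called lower, or 27.7% of all protein-coding genes called lower. The 3 higher runs held 203 genes (1.7%) and 74 called higher (7.6% of those called higher). Since the vehicle medians chose the runs, they are a description, and the medians under drugs are the values that did not enter the choice.

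The deepest run covered 31.1 Mb of chromosome 18, chr18:45847609-76970727 on GRCh38, from EPG5 to ZNF236. Of its 71 genes 44 were lower (62%) and 3 higher, and the median log2 was -0.69 under vehicle and -0.61, -0.75 and -0.73 under decitabine, doxorubicin and both. Its median deviation lay between -0.36 and -0.26 in resistant libraries and between 0.21 and 0.37 in parental libraries. NEDD4L, a ubiquitin ligase that turns over sodium channels and SMAD proteins, lies in it and was at 75.3, 67.4, 64.9 and 51.8 CPM in resistant tumours, against 258, 272, 271 and 231 CPM in parental tumours (log2 -1.99, SE 0.14, adjusted p = 6.77e-11). Also in it were PHLPP1, a phosphatase that removes the activating phosphate of AKT, at -1.43 (SE 0.19), BCL2, the inhibitor of apoptosis, at -0.96 (SE 0.25), and PIGN, of glycolipid anchor synthesis, at -1.38 (SE 0.21). SMAD2 and SMAD4, the mediators of transforming growth factor β signals and named after their values were seen, and MBD2, which binds methylated DNA, lie there too. They were at -0.69, -0.68 and -0.66 log2, close to the median of the run.

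On chromosome 6 a run of 12.9 Mb from TBC1D7 to H1-4 (chr6:13266542-26157107) had 22 of 43 genes lower and a median of -0.54, and a run of 11.0 Mb from VPS52 to SLC29A1 (chr6:33250272-44234151) had 63 of 105 genes lower, none higher, and a median of -0.55. SOX4 and CASC15 lie in the first. CCND3, a D-type cyclin, lies in the second and was at 49.7 ± 4.01 CPM in resistant tumours and 84.6 ± 8.07 CPM in parental tumours (log2 -0.77, SE 0.15, adjusted p = 0.000411). MOCS1, of molybdenum cofactor synthesis, and TAF8, a subunit of the general transcription factor TFIID, fell by 1.65 and 1.38 log2 (SE 0.17 and 0.19). HSP90AB1, the abundant cytosolic chaperone, lies just past the end of the second run, was named after its values were seen and was at 2219, 2158, 2096 and 2202 CPM in resistant tumours, against 3254, 3107, 3772 and 3204 CPM in parental tumours (log2 -0.62, SE 0.11, adjusted p = 0.000142). The HLA class II genes lie between the 2 runs, and 6 of the 11 genes of their pathway tested were higher.

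Chromosome 19 showed a step that its whole-chromosome median of -0.03 hides. From TNFSF9 to YJU2B (chr19:6530999-13763296), 68 of 133 genes were lower and 3 higher, with a median of -0.53 under vehicle and -0.44, -0.51 and -0.43 under decitabine, doxorubicin and both. A second run from ILVBL to MAST3 (chr19:15114984-18151692) had 17 of 40 lower and a median of -0.44. RPS28 lies in the first, as does CD320, the receptor for the vitamin B12 carrier transcobalamin, which was at 27.9, 20.3, 23.5 and 19.9 CPM in resistant tumours, against 74.4, 74.8, 89.5 and 86.9 CPM in parental tumours (log2 -1.83, SE 0.15, adjusted p = 1.42e-09). Chromosome 1 held 3 runs, of which the longest, from GADD45A to GNAI3 (chr1:67685061-109618321), had 70 of 125 genes lower and a median of -0.55. Single runs were found on chromosome 4 (44 of 84 lower, median -0.46), chromosome 8 (33 of 63 lower, median -0.52) and chromosome 2 (18 of 40 lower, median -0.51).

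**Figure D4:**
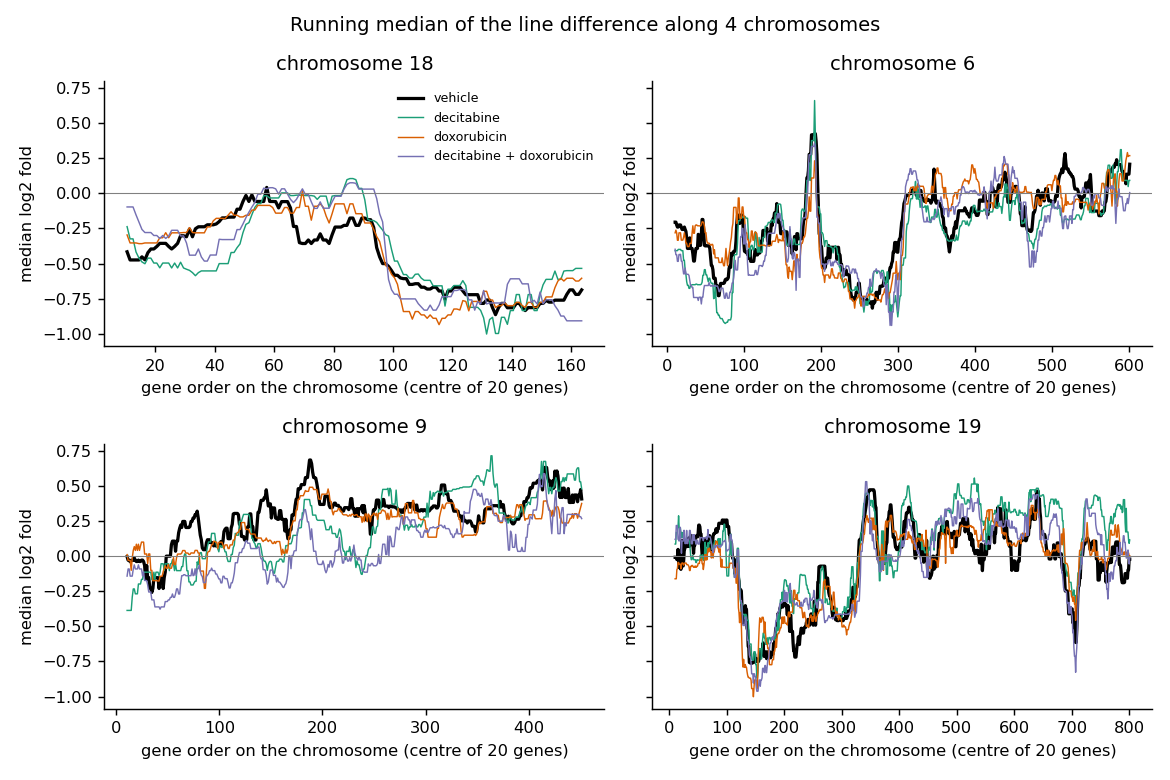
Median log2 fold of resistant over parental tumours in windows of 20 consecutive tested protein-coding genes (vertical axis) by gene order along chromosomes 18, 6, 9 and 19 (horizontal axis), under vehicle (black) and under decitabine, doxorubicin and both (colours). The 4 lines step down together near the middle of chromosome 18 and at 1 stretch of chromosome 19, and neighbouring windows share genes.

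All 3 higher runs were on chromosome 9. The run from NOL8 to RAD23B (chr9:92297358-107332194) had 18 of 59 genes higher and none lower, the run from KIAA1958 to PIP5KL1 (chr9:112486847-127930797) had 32 of 84 higher and 1 lower, and the run from TTF1 to NELFB (chr9:132375548-137273546) had 24 of 60 higher and none lower. Their medians were 0.39, 0.35 and 0.46 under vehicle, 0.2, 0.33 and 0.47 under decitabine and 0.39, 0.31 and 0.29 under doxorubicin. Under both drugs they were lower, at 0.10, 0.18 and 0.27. PAEP lies in the third, as does OBP2A, an odorant-binding protein whose 104 counts were all in resistant tumours. FBP1, the gluconeogenic fructose bisphosphatase, and AOPEP, a peptidase encoded beside it, rose by 1.46 and 1.60 log2 (SE 0.46 and 0.19) in the first. FBP1 had no call without resistant vehicle 2 or 4, or without parental vehicle 2, 3 or 4. Outside these runs, the window with the highest median, 0.68, covered the protocadherin β and γ clusters on chromosome 5 (chr5:140691426-141879246), with 7 of 20 genes higher and 1 lower.

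ZNF genes, mostly transcriptional repressors with zinc finger arrays, were lower more often than higher. Of 386 tested, 77 were lower (19.9%) and 10 higher (2.6%), with a median log2 of -0.16. Their median line difference was -0.008 under decitabine, 0.045 under doxorubicin and -0.157 under both drugs. Of all genes tested 11.5% were lower and 8.66% higher. On chromosome 19, where many of them stand in clusters, 41 of 182 were lower (22.5%), against 90 of 628 other protein-coding genes of that chromosome (14.3%). On chromosomes 1, 4, 6, 8 and 18 it was 21 of 53 (39.6%), and on the remaining chromosomes 15 of 151 (9.9%). Those 5 chromosomes were picked for their shares lower, and 699 of their 2809 protein-coding genes tested were lower. Some of the 182 on chromosome 19, ZNF358 (log2 -0.76) among them, lie in its lower runs, and the count was not split by run. ZNF354C (chromosome 5) and ZNF585B (chromosome 19) had no count in resistant tumours. ZNF354C was at 5.56, 9.78, 4.63 and 12.1 CPM in the 4 parental libraries, or at least 45.9-fold lower in the resistant group. ZNF585B was at 3.25, 4.78, 4.89 and 4.33 CPM, or at least 24.3-fold lower. ZNF439 and ZNF844, also on chromosome 19, had 1 and 3 counts in the resistant group against 69 and 88 in the parental one. These genes share zinc finger sequence, and how multiply aligned reads were counted is not given in the sources used here.

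Genes that cut or hold the extracellular matrix were mixed, with more falls than rises among the proteases. Of 34 matrix metalloproteases, ADAMs and their inhibitors tested, 10 were lower (29.4%, against 11.5% of all genes tested) and 2 higher, with a median log2 of -0.17. The 10 became 6 without resistant vehicle 1 or 4 or parental vehicle 3, and the 2 became 4 without parental vehicle 4. MMP2, a gelatinase, was at 0, 0.253, 0.904 and 0.678 CPM in resistant tumours, against 2.78, 8.91, 4.12 and 7.53 CPM in parental tumours (log2 -3.56, SE 0.50, adjusted p = 6.61e-06). MMP16, a membrane-bound activator of MMP2, was at 3.16, 4.56, 4.75 and 4.07 CPM in resistant tumours, against 16.5, 17.2, 19 and 17.8 CPM in parental tumours (log2 -2.08, SE 0.22, adjusted p = 6.32e-08). Neither overlapped between the lines. MMP1, an interstitial collagenase, was at 3.88, 11.1, 4.52 and 3.84 CPM in resistant tumours, against 19, 25.2, 43.2 and 22.4 CPM in parental tumours (log2 -2.24, SE 0.64, adjusted p = 0.015), and it was not called without parental vehicle 3. TIMP3, an inhibitor bound to the matrix and named after its values were seen, went up at a high level, with 2537, 2309, 2873 and 2457 CPM in resistant tumours, against 1522, 1502, 1346 and 1446 CPM in parental tumours (log2 0.81, SE 0.16, adjusted p = 0.000675). TIMP1, also named after its values were seen, was at 165 ± 18.1 CPM in resistant tumours and 263 ± 51.9 CPM in parental tumours and fell by 0.67 (SE 0.17).

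Adhesion receptors differed in both directions, where 8.66% of all genes tested were higher and 11.5% lower. Of 17 integrin subunits 4 were higher (23.5%), namely ITGB2, ITGB4, ITGA2 and ITGB6. Lower were 3 (17.6%), namely ITGA1, ITGB1 and the integrin-like ITGBL1. ITGB6 and ITGBL1 were named after their values were seen, and ITGB6 was not called without resistant vehicle 1. ITGB2, the β chain of leukocyte integrins, was at 18.2, 16.5, 15.4 and 17.6 CPM in resistant tumours, against 4.17, 1.96, 2.31 and 1.6 CPM in parental tumours (log2 2.74, SE 0.24, adjusted p = 3.55e-09). ITGB4, the β chain of the laminin receptor of hemidesmosomes, was at 103, 122, 162 and 139.7 CPM in resistant tumours, against 60.3, 70.4, 68.7 and 71.2 CPM in parental tumours (log2 0.96, SE 0.21, adjusted p = 0.00137). ITGA1, which pairs with the β1 chain to bind collagen, was at 18.6 ± 4.07 CPM in resistant tumours and 40.0 ± 10.1 CPM in parental tumours (log2 -1.10, SE 0.17, adjusted p = 3.92e-05), and ITGB1, the β1 chain itself, was at 132 ± 6.89 CPM in resistant tumours and 203 ± 15.8 CPM in parental tumours (log2 -0.61, SE 0.14, adjusted p = 0.00163). Of 33 cadherins and protocadherins 7 were higher (21.2%) and 2 lower (6.1%), with a median log2 of 0.54. PCDH1 was at 11.7 ± 4.01 CPM in resistant tumours and 2.35 ± 0.938 CPM in parental tumours (log2 2.28, SE 0.37, adjusted p = 5.08e-05), and PCDHB7 and PCDHB10 rose by 1.91 and 2.05 (SE 0.45 and 0.53). The γ protocadherins share their last exons, so that their counts cannot be assigned to 1 gene. CDH11, a mesenchymal cadherin, was at 2.19, 6.59, 1.58 and 3.16 CPM in resistant tumours, against 17.6, 17.4, 26.8 and 29.2 CPM in parental tumours (log2 -2.76, SE 0.32, adjusted p = 3.27e-07). Of 20 collagen chains 3 were higher and 2 lower. COL18A1, of basement membranes, fell by 0.97 (SE 0.26), and COL27A1 rose by 0.90 (SE 0.21).

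Of 27 epithelial junction and surface genes tested, 10 were lower (37.0%, against 11.5% of all genes tested) and 4 higher, with a median log2 of -0.27, and the 10 became 6 without resistant vehicle 1. EPCAM, the epithelial adhesion molecule, was at 9.23, 7.09, 7.46 and 9.72 CPM in resistant tumours, against 28.3, 32.8, 23.1 and 24 CPM in parental tumours (log2 -1.69, SE 0.18, adjusted p = 9.59e-08). KRT81, a hair keratin that is not among the 27, was at 0.411 ± 0.213 CPM in resistant tumours and 6.59 ± 2.82 CPM in parental tumours and fell by 3.91 (SE 0.59). CLDN4, a claudin of tight junctions, was at 17.4 ± 5.2 CPM in resistant tumours and 40.5 ± 6.55 CPM in parental tumours (log2 -1.21, SE 0.17, adjusted p = 4.94e-06). Against these, LSR, a protein of tricellular junctions, was at 23.6, 19.5, 18.5 and 19.9 CPM in resistant tumours, against 1.85, 9.34, 10.5 and 7.53 CPM in parental tumours (log2 1.48, SE 0.28, adjusted p = 0.00028), and MUC1, a transmembrane mucin, rose by 2.86 (SE 0.37). Of 38 mesenchymal state genes 7 were higher (18.4%, against 8.66% of all genes tested) and 8 lower (21.1%, against 11.5%), with a median of 0.03. The 7 became 3 without parental vehicle 3 and 4 without parental vehicle 4, and the 8 became 5 without resistant vehicle 1 or 4 or parental vehicle 4. S100 proteins and annexins, calcium-binding proteins of the membrane and cytoskeleton, had 7 higher (38.9%, against 8.66% of all genes tested) and none lower of 18, and the 7 became 4 without parental vehicle 3. S100A6 was at 3034 ± 104 CPM in resistant tumours and 2185 ± 94.1 CPM in parental tumours (log2 0.47, SE 0.13, adjusted p = 0.0115), ANXA2 at 1386 ± 148 CPM in resistant tumours and 892 ± 150.1 CPM in parental tumours (log2 0.64, SE 0.15, adjusted p = 0.00251) and ANXA3 at 84.1 ± 6.8 CPM in resistant tumours and 43.8 ± 10.5 CPM in parental tumours (log2 0.94, SE 0.18, adjusted p = 0.000456). Under decitabine the line differences of these 3 genes were -0.11, 0.06 and -0.29, and none was called.

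**Figure D5:**
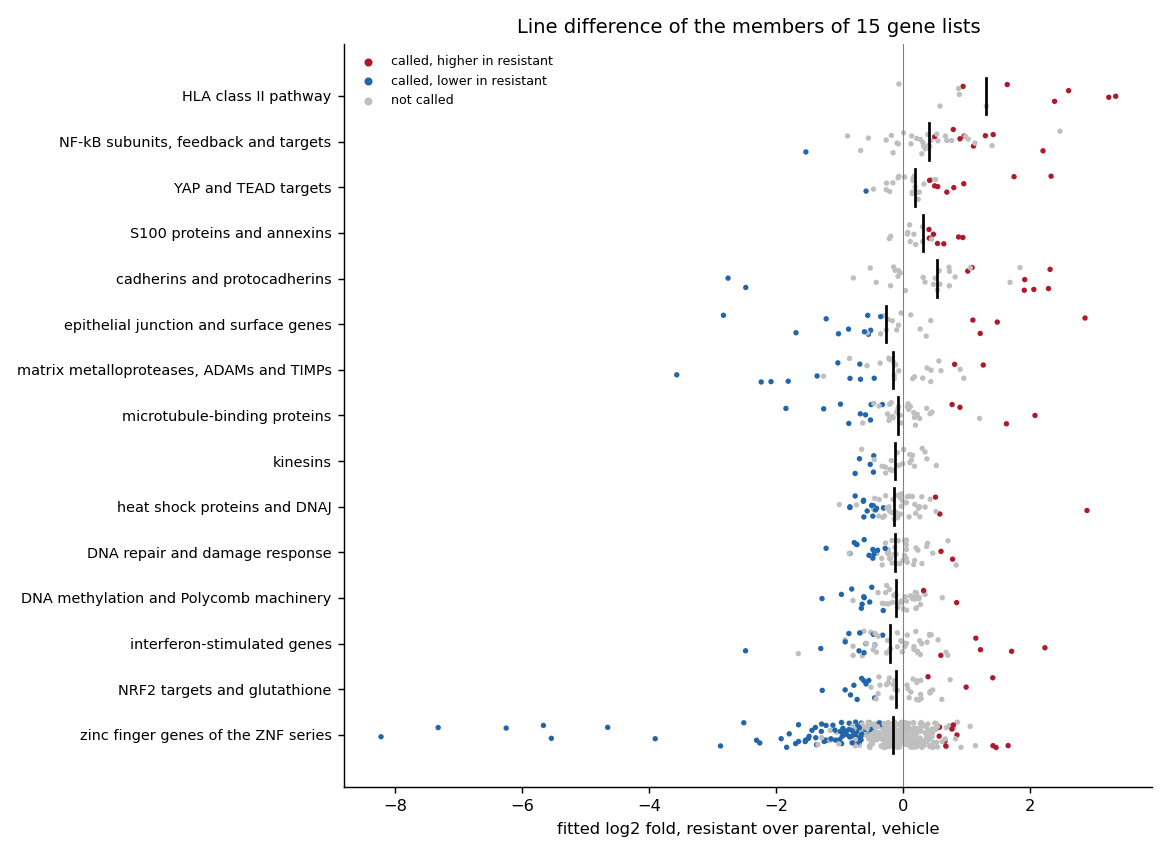
Fitted log2 fold of resistant over parental vehicle tumours (horizontal axis) of the tested members of 15 gene lists (rows), with 1 point for each gene and a black bar at the median of the list. Red points are called higher, blue points lower, and grey points are not called, and positions within a row are spread at random for legibility.

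YAP and TEAD targets, which answer to cell spreading and to the Hippo pathway, were mostly higher where they were called. Of 30 genes tested in this list, 8 were higher (26.7%, against 8.66% of all genes tested) and 1 lower (3.3%, against 11.5%), with a median log2 of 0.18. The list is not of targets alone. It also counts YAP1, WWTR1, TEAD1 to TEAD4 and LATS1 of the pathway itself, none of them called. ANKRD1, a target used as a readout of YAP, was at 297, 259, 234 and 334 CPM in resistant tumours, against 98.5, 89.7, 75.9 and 71.6 CPM in parental tumours (log2 1.74, SE 0.16, adjusted p = 7.14e-09). CCN2, a matricellular growth factor, was at 631, 614, 785 and 939 CPM in resistant tumours, against 477, 479.6, 314 and 442 CPM in parental tumours (log2 0.79, SE 0.20, adjusted p = 0.00534). No resistant library of either overlapped a parental one. AMOTL2, a relative of AMOT, was at 42 ± 8.09 CPM in resistant tumours and 21.7 ± 1.95 CPM in parental tumours (log2 0.95, SE 0.15, adjusted p = 5.16e-05), and LATS2, the Hippo kinase, was at 54 ± 3.21 CPM in resistant tumours and 33.5 ± 9.78 CPM in parental tumours (log2 0.69, SE 0.20, adjusted p = 0.0155) and was not called without parental vehicle 3. Under decitabine ANKRD1 was called again (log2 1.45), and CCN2 was not (log2 0.12).

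Among 54 genes of transforming growth factor β and bone morphogenetic protein signalling, 7 were higher and 6 lower, with a median of 0.00. The shares among all genes tested were 8.66% higher and 11.5% lower. The 7 became 3 with the 8 vehicle libraries alone. Beside SMOC1, the antagonist FST rose, with 126, 106, 97.9 and 188 CPM in resistant tumours, against 38.7, 58.2, 62.8 and 41.3 CPM in parental tumours (log2 1.37, SE 0.22, adjusted p = 4.15e-05), and the receptor-activated SMAD1 fell, with 33.7, 31.7, 36.2 and 28 CPM in resistant tumours, against 59.1, 80.2, 123 and 83.3 CPM in parental tumours (log2 -1.41, SE 0.21, adjusted p = 1.52e-05). Among EGFR ligands, HBEGF was at 261, 268, 183 and 261 CPM in resistant tumours, against 137, 119, 154 and 91.3 CPM in parental tumours (log2 0.96, SE 0.15, adjusted p = 4.39e-05), whereas EREG was at 7.77, 7.35, 10.4 and 9.04 CPM in resistant tumours, against 16, 21.1, 21.9 and 28.7 CPM in parental tumours (log2 -1.34, SE 0.20, adjusted p = 1.82e-05). NRG1, a ligand of ERBB3 and ERBB4, fell by 0.97 (SE 0.15). Of 42 other receptor tyrosine kinases and ligands 2 were higher and 7 lower (16.7%, against 11.5% of all genes tested), and the 7 became 3 without resistant vehicle 1 or 4 and 4 without resistant vehicle 2. Without resistant vehicle 1, 4 were higher. Of 33 WNT signalling genes 3 were higher and 3 lower (9.1% each). Of these, none was lower without resistant vehicle 4 and 1 without resistant vehicle 1 or parental vehicle 3, and 5 were higher without resistant decitabine and doxorubicin 3. DKK1, a secreted WNT antagonist, was at 139 ± 17.1 CPM in resistant tumours and 66.6 ± 25.7 CPM in parental tumours (log2 1.06, SE 0.22, adjusted p = 0.000767). LIFR, a cytokine receptor of the IL-6 family, fell by 1.53 (SE 0.17), and KLF5, a transcription factor of epithelial growth, rose by 1.35 (SE 0.26).

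NF-kB, chemokine and interleukin, and HLA class II genes were higher more often than lower. Of 40 NF-kB genes 8 were higher and 1 lower (median 0.41), of 36 chemokines, interleukins and their receptors 7 were higher and 1 lower (median 0.42), and of 11 genes of the HLA class II pathway 6 were higher and none lower (median 1.31). These were 20%, 19.4% and 54.5% of the lists, against 8.66% of all genes tested. CXCL1 and CXCL8 are chemokines and also among the 8 NF-kB genes, so the NF-kB and chemokine counts are not independent. The 8 NF-kB genes became 5 without resistant vehicle 1 or parental vehicle 3, and the 7 chemokine and interleukin genes became 3 without resistant vehicle 1 or 3 or parental vehicle 1 or 2. CXCL1 and CXCL8, which attract neutrophils, were at 48 ± 14.7 CPM in resistant tumours and 17.9 ± 9.71 CPM in parental tumours and at 35.6 ± 13.4 CPM in resistant tumours and 14.5 ± 6.57 CPM in parental tumours, but neither was called without resistant vehicle 1 or 3, or without parental vehicle 1, 2 or 3. LTB, a membrane lymphotoxin, was at 20.6, 3.29, 24.6 and 10.4 CPM in resistant tumours, against 1.62, 2.39, 3.86 and 5.02 CPM in parental tumours (log2 2.20, SE 0.51, adjusted p = 0.00309), and 1 resistant library lay among the parental ones. CD70, a ligand of the TNF family, was at 6.07, 3.8, 4.3 and 3.39 CPM in resistant tumours, against 0.696, 0.869, 0.772 and 0.228 CPM in parental tumours (log2 2.72, SE 0.62, adjusted p = 0.00238). IL7R, a lymphocyte cytokine receptor, was at 18.5, 11.9, 12.7 and 17.6 CPM in resistant tumours, against 5.8, 3.26, 2.57 and 2.51 CPM in parental tumours (log2 2.09, SE 0.29, adjusted p = 7.72e-06). Of 58 interferon-stimulated genes 11 were lower (19%, against 11.5% of all genes tested) and 5 higher, with a median of -0.21. The 5 became 3 without resistant vehicle 3 or parental vehicle 1 or 3. Under decitabine, doxorubicin and both the median line difference of the 58 was above 0, at 0.28, 0.41 and 0.27. Chromosomes 1, 4, 6, 8 and 18 hold 13 of the 58 and 5 of the 11. IFI44 was at 9.23, 11.9, 8.82 and 8.81 CPM in resistant tumours, against 24.1, 21.5, 27 and 22.8 CPM in parental tumours (log2 -1.30, SE 0.18, adjusted p = 8.29e-06), and GBP2, a GTPase, and PARP14 fell by 0.91 and 0.86 (SE 0.25 and 0.17). GBP2 lies in the run of chromosome 1 from GADD45A to GNAI3. OASL, a relative of the oligoadenylate synthetases, rose by 1.21 (SE 0.33).

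Human markers of other cell types were read beside these lists, and how reads of mouse cells were handled is not given in the sources used here. Of 12 lymphoid markers, 8 had no count, among them CD3D, CD3E, CD2, MS4A1 and NKG7, in any of the 8 libraries. The summed CPM of the list was 15.95 to 24.44 in resistant tumours and 5.14 to 10.42 in parental tumours. Of the 3 lymphoid markers tested 2 were higher, IL7R among them, and none was lower. Of 12 myeloid markers, ITGAM and TYROBP had no count, and the summed CPM was 113.93 to 152.34 in resistant tumours and 69.71 to 112.51 in parental tumours. Of the 7 myeloid markers tested 2 were higher and 1 lower. The 2 became 1 without resistant vehicle 1, 2 or 4, without parental vehicle 2, 3 or 4, and without some of the libraries under drugs. None was lower without resistant vehicle 2 or 4 or parental vehicle 1. Fibroblast markers, all 10 of which had counts, summed to 637.9 to 2129.38 CPM in resistant tumours and 766.86 to 1204.01 CPM in parental tumours, and none of the 6 tested was called. Endothelial markers, of which CLDN5 had no count, summed to 24.15 to 34.42 CPM in resistant tumours and 29.85 to 54.63 CPM in parental tumours, and PECAM1 and TIE1 fell by 1.15 and 0.85 (SE 0.25 and 0.30), with no call for TIE1 when any vehicle library but resistant 1 or parental 4 was left out. Adipocyte markers summed to 4.11 to 8.0 CPM in resistant tumours and 5.01 to 6.71 CPM in parental tumours, and muscle markers to 3.32 to 8.22 CPM in resistant tumours and 7.07 to 11.11 CPM in parental tumours. Their part in the results above was not tested, and in bulk samples fewer cells of a type and less RNA per cell cannot be told apart.

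Some tubulin genes, which encode the target of paclitaxel, and some genes of microtubule-binding proteins were called. TUBB, a β-tubulin gene, was at 489, 569.8, 747 and 581 CPM in resistant tumours, against 785, 978, 1189 and 1098 CPM in parental tumours (log2 -0.76, SE 0.15, adjusted p = 0.000495), and every resistant library was below every parental one. It lies on chromosome 6, between the 2 runs described above, as do ATAT1, ABCF1 and EHMT2, which are given below and were also lower. Of 14 tubulins tested 1 was higher (7.1%) and 2 lower (14.3%), where 8.66% of all genes tested were higher and 11.5% lower. The 2 lower became 1 without resistant vehicle 1, 2 or 4 or parental vehicle 2 or 4. TUBB3, an isotype often tied to taxane resistance, had 1 count in the resistant group and 2 in the parental one. Of 42 microtubule-binding proteins 4 were higher (9.5%) and 9 lower (21.4%), with a median of -0.08. Chromosomes 1, 4, 6, 8 and 18 hold 12 of the 42 and 5 of the 9, and elsewhere 4 of 30 were lower. MAPT, which encodes tau, was at 70.4, 50.7, 81.2 and 60.3 CPM in resistant tumours, against 13.9, 12.2, 18 and 18.5 CPM in parental tumours (log2 2.07, SE 0.19, adjusted p = 8.33e-09). MAP1A was at 9.91 ± 3.74 CPM in resistant tumours and 3.21 ± 0.282 CPM in parental tumours (log2 1.62, SE 0.32, adjusted p = 0.000484). On the other side, ATAT1, the enzyme that acetylates α-tubulin, was at 3.16, 4.05, 2.26 and 3.62 CPM in resistant tumours, against 12.5, 12, 8.23 and 14.4 CPM in parental tumours (log2 -1.85, SE 0.22, adjusted p = 8.31e-07), EML1 was at 4.93 ± 2.52 CPM in resistant tumours and 11.8 ± 0.926 CPM in parental tumours (log2 -1.25, SE 0.28, adjusted p = 0.00153) and MAP2, a dendritic relative of tau, was at 11 ± 2.55 CPM in resistant tumours and 21.8 ± 5.02 CPM in parental tumours (log2 -0.99, SE 0.27, adjusted p = 0.00844).

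Kinesins, the motors that walk on microtubules, had 5 lower (17.9%, against 11.5% of all genes tested) and none higher of 28. KIF13A was at 84.7 ± 23.3 CPM in resistant tumours and 143 ± 16 CPM in parental tumours (log2 -0.76, SE 0.15, adjusted p = 0.000444) and KIF1B at 104 ± 14.8 CPM in resistant tumours and 168 ± 29.9 CPM in parental tumours (log2 -0.69, SE 0.14, adjusted p = 0.000942). These 2 lie on chromosomes 6 and 1, and of the 28 kinesins 7 lie on chromosomes 1, 4, 6, 8 and 18. Mitosis and spindle checkpoint genes had 4 higher (10.0%, against 8.66% of all genes tested) and 1 lower of 40, with a median of 0.09, and 7 were higher without parental vehicle 1. MAD1L1 and MAD2L1, partners in the checkpoint that paclitaxel engages, rose by 1.09 and 0.60 (SE 0.19 and 0.21), the second with no call without resistant vehicle 2 or 4 or parental vehicle 3 or 4, and NDC80, a kinetochore protein, fell by 0.72 (SE 0.18). Of 23 ABC transporters 2 were higher (8.7%, against 8.66% of all genes tested) and 1 lower (4.3%, against 11.5%). None was higher without resistant vehicle 3 or parental vehicle 2, and 1 was higher without resistant vehicle 1 or parental vehicle 1 or 3. The paclitaxel pump ABCB1 had 2 counts in the resistant group and 6 in the parental one, too few for a test. ABCF1, a translation factor of the ABC family with no transport function, was at 154 ± 3.66 CPM in resistant tumours and 316 ± 57.8 CPM in parental tumours and fell by 1.04 (SE 0.16).

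Chaperones, repair genes and chromatin genes were lower more often than higher. Of 57 heat shock and DNAJ proteins 13 were lower (22.8%, against 11.5% of all genes tested) and 3 higher, with a median of -0.14. Chromosomes 1, 4, 6, 8 and 18 hold 12 of the 57 and 6 of the 13, and elsewhere 7 of 45 were lower. The 13 became 7 without parental vehicle 1, and the 3 became 1 without resistant vehicle 3 or parental vehicle 1 or 3. HSPH1, a co-chaperone of HSP70, was at 546, 308, 471 and 419.7 CPM in resistant tumours, against 839, 759, 832 and 696 CPM in parental tumours (log2 -0.84, SE 0.18, adjusted p = 0.00113). HSP90B1, the HSP90 of the endoplasmic reticulum, is not among the 57. It was at 786, 602, 663 and 647 CPM in resistant tumours, against 1218, 998, 1407 and 1286 CPM in parental tumours (log2 -0.86, SE 0.14, adjusted p = 7.97e-05). The groups did not overlap for either gene. Of 51 DNA repair genes 12 were lower (23.5%) and 2 higher (3.9%), with a median of -0.14, where 11.5% of all genes tested were lower and 8.66% higher. WRN, a helicase, was at 15 ± 3.75 CPM in resistant tumours and 25.7 ± 6.77 CPM in parental tumours (log2 -0.77, SE 0.19, adjusted p = 0.00355), and RAD51C, of homologous recombination, rose by 0.77 (SE 0.23) but was not called without resistant vehicle 4 or parental vehicle 3. The number of repair genes lower was unstable: it was 5 without resistant vehicle 1 or 2 or parental vehicle 3, 6 without resistant vehicle 3, and 7 without parental vehicle 1 or 2. Of 47 genes of DNA methylation and Polycomb 10 were lower (21.3%, against the same 11.5%) and 2 higher (4.3%, against 8.66%), with a median of -0.12. Chromosomes 1, 4, 6, 8 and 18 hold 12 of the 47 and 7 of the 10. They hold 24.1% of all protein-coding genes tested and, picked for their shares lower, 46.9% of those lower. The 2 higher became 1 without resistant vehicle 1 or parental vehicle 3, and up to 4 without other libraries. SMARCA1, an ATPase that slides nucleosomes, was at 113, 106, 117 and 139 CPM in resistant tumours, against 287, 286, 312 and 267 CPM in parental tumours (log2 -1.28, SE 0.10, adjusted p = 8.99e-10). EHMT2, a histone H3 lysine methyltransferase, was at 36.9, 37.5, 42.1 and 29.8 CPM in resistant tumours, against 52.6, 66.5, 94.7 and 73.9 CPM in parental tumours (log2 -0.97, SE 0.20, adjusted p = 0.000679), and HDAC9 rose by 0.84 (SE 0.17).

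Of 44 NRF2 targets and glutathione genes 10 were lower (22.7%, against 11.5% of all genes tested) and 3 higher, with a median of -0.12. Under decitabine, doxorubicin and both the median was 0.08, -0.16 and -0.11. Chromosomes 1, 4, 6, 8 and 18 hold 14 of the 44 and 6 of the 10, and elsewhere 4 of 30 were lower. Beside GSTP1, PGD of the pentose phosphate pathway fell by 0.91 (SE 0.15), and SLC7A11, the cystine transporter, rose by 0.99 (SE 0.22). Of 44 cholesterol and fatty acid synthesis genes 2 were higher and 5 lower (11.4%), with 1 higher without resistant vehicle 2 and 3 lower without parental vehicle 3. SQLE, the squalene epoxidase of cholesterol synthesis, was at 30.8, 32.2, 27.8 and 30.7 CPM in resistant tumours, against 74.7, 63.7, 67.1 and 53.6 CPM in parental tumours (log2 -1.09, SE 0.16, adjusted p = 1.38e-05). ACSL1, which activates long-chain fatty acids, was at 3.4, 48.1, 4.07 and 9.04 CPM in resistant tumours, against 3.71, 3.26, 1.03 and 1.82 CPM in parental tumours (log2 2.67, SE 0.66, adjusted p = 0.00485), so that 1 resistant library carried the difference, and it was not called without that library (log2 1.15). CDA, the deaminase that inactivates decitabine, was at 6.63 ± 2.14 CPM in resistant tumours and 34.5 ± 7.33 CPM in parental tumours (log2 -2.38, SE 0.27, adjusted p = 3.88e-07). Of 51 hypoxia and glycolysis genes 1 was higher (2.0%, against 8.66% of all genes tested) and 4 lower (7.8%, against 11.5%). There were 2 higher without parental vehicle 1 and 2 lower without resistant vehicle 1.

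Whether the line difference itself differed between a drug and vehicle was tested gene by gene. The contrasts share the vehicle libraries, so the values are given side by side. Under decitabine 16 genes passed (0.119% of those tested) and under both drugs 3 (0.0222%, of which the 1 that was lower made 0.00741%). Under doxorubicin 0 passed in edgeR, where DESeq2 called 31. The unadjusted p of edgeR's test was under 0.05 for 2640 genes with decitabine, 1078 with doxorubicin and 2836 with both drugs. The genes given from this test were chosen after their values were seen. FCGRT, the Fc receptor that recycles IgG and albumin, was at 7.23 ± 1.53 CPM in resistant tumours and 32.5 ± 8.4 CPM in parental tumours under vehicle (log2 -2.16, SE 0.25). Under decitabine it averaged 21.8 CPM in resistant tumours and 15.6 CPM in parental tumours (log2 0.47, SE 0.24), and the line differences differed by 2.63 (SE 0.35, adjusted p = 0.000333). HTRA1, a secreted serine protease, averaged 63.1 CPM in resistant tumours and 199.8 CPM in parental tumours under vehicle, and 97.2 CPM in resistant tumours and 97.6 CPM in parental tumours under decitabine (difference 1.65, SE 0.31, adjusted p = 0.0134). CLDN4, lower in resistant tumours under vehicle, had a log2 of 0.22 under decitabine (difference 1.43, SE 0.24, adjusted p = 0.00444). FHL1, a LIM-domain protein, had a log2 of -2.08 under vehicle and -0.08 under decitabine (adjusted p = 0.013). The number of such genes was unstable: for decitabine it ran from 7 without resistant decitabine 2 to 299 without parental vehicle 1, and DESeq2 called 292.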

How the data were processed

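RNA of 29 xenograft tumours in 8 groups of 3 or 4 was sequenced from the 3′ end of polyadenylated transcripts with QuantSeq FWD kits, per the labels' protocols. The deposited values are whole-number counts per gene, made by the authors. The submitters' processing notes name cutadapt, STAR 2.7.3a, featureCounts, DESeq2 and the build GRCh38.p10, with no order. The annotation release, the strand setting and the handling of mouse reads are not given in the sources used here.

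The table held 58302 genes, of which 27963 had no count in any library. Genes were kept with edgeR's filterByExpr (minimum count 10, minimum total 15), which left 13495. Libraries were scaled by TMM and fitted together, with 1 mean per group, by edgeR 4.0.16 (robust quasi-likelihood, limma 3.58.1, R 4.3.3), and Benjamini-Hochberg adjustment ran over all genes tested. Resistant vehicle tumours were contrasted with parental vehicle tumours, the same contrast was read under each drug, and its difference from vehicle was tested. Gene positions are those of GENCODE 29 on GRCh38, promoters those of RefSeq on GRCh38.p14. Intervals and floors reflect counting error alone.

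Named genes were drawn from the 12 largest folds each way among called genes without overlap (mean of at least 10 CPM in the higher group), the 8 largest CPM differences each way, up to 5 called members of each of 68 lists, up to 4 of each window, the long non-coding RNAs with the largest folds, and a fixed set of drug and identity genes. Members, lists and rules were chosen with earlier results of these data known. Alternatives were other scalings (DESeq2 size factors, upper quartile), other filters, DESeq2 1.42.0, the 8 vehicle libraries alone, the replicate number as a block, and each library left out. A few genes are not reported here.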

Additional observations from a re-analysis of the deposited data

Results flagged for a closer look

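In groups of 4 libraries, a library was marked when its gap to the nearest of the others exceeded Dixon's critical share of the range of the group. 19 of 295 groups checked were marked, and chance marks about 1 in 20. In resistant vehicle 1 it was the level of ITGB6 (3.399 CPM), OBP2A (19.91 CPM) and PNMA5 (261 CPM). In resistant vehicle 2 it was the level of ACSL1 (48.14 CPM), IFI44 (11.91 CPM) and MMP1 (11.15 CPM). In resistant vehicle 3 it was the level of FOSL1 (30.52 CPM), HBEGF (182.9 CPM), NR2F1 (213.9 CPM) and PECAM1 (7.235 CPM). In parental vehicle 1 it was the level of CLDN4 (30.83 CPM), KIF13A (119.6 CPM), LCP1 (5.332 CPM) and PARP14 (68.86 CPM). In parental vehicle 3 it was the level of KLF5 (24.95 CPM). In parental vehicle 4 it was the level of AMOT (9.581 CPM), GABRE (10.04 CPM), HDAC9 (97.64 CPM) and XIRP2 (4.563 CPM).

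The line difference under a drug differed from that under vehicle for 16 genes with decitabine and 3 with both drugs. These genes were listed because they passed the test. The contrasts share the vehicle libraries, and each value is the log2 line difference under the drug minus that under vehicle, from edgeR's quasi-likelihood test. With decitabine it was, for 15 of the 16, 1.99 for FHL1, 1.77 for NFATC4, 1.71 for PLTP, -0.73 for NUP93, 2.63 for FCGRT, 4.59 for FILIP1, 1.07 for POLM, 1.55 for CD96, -1.87 for C16orf74, 1.65 for HTRA1, 1.69 for CEP19, 1.29 for ZFTA, 1.43 for CLDN4, 1.89 for ZNF512B and 5.60 for ITGBL1. With both drugs it was -0.79 for NUP93, 1.66 for MMP16 and 5.06 for ITGBL1. The values of ITGBL1 are fitted ones that rest on 1 count in the resistant vehicle group and are no bound.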

How the results depend on the processing

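The count of genes called in resistant over parental vehicle tumours was 2718. It was 2742 with DESeq2 size factors, 2746 with upper quartile scaling, 2728 without the filter, 2860 with DESeq2, 2043 with the 8 vehicle libraries alone and 2611 with the replicate number as a block. Replicate numbers did not pair the libraries: the correlations of same-numbered resistant and parental libraries were -0.008, -0.056, 0.137 and -0.105. With 1 of the 29 libraries left out it ran from 2037 (without parental vehicle 3) to 3067, with 885 to 1369 genes higher and 1152 to 1698 lower, 713 to 878 past 1 on the log2 scale, and 639 to 782 called the same way in all 4 treatments, of 780. The number of genes whose line difference differed from vehicle depended most on the settings. For decitabine, 16 genes became 32 with upper quartile scaling, 1001 without the filter and 292 with DESeq2, and 7 to 299 with 1 library left out. For doxorubicin, 0 became 1 with upper quartile scaling, 108 without the filter, 1 with the replicate block and 31 with DESeq2, and 0 to 2 with 1 library left out. For both drugs, 3 became 5 with DESeq2 size factors, 1109 without the filter, 1 with the replicate block and 171 with DESeq2, and 0 to 273 with 1 library left out. The cause was not tested. Of 144 called genes named in the text, 131 were called in the same direction in all 36 alternatives, 0 changed sign, and ACSL1, CAV1, CXCL1, CXCL8, FBP1, ITGA2, ITGB6, LATS2, MAD2L1, MET, MMP1, RAD51C and TIE1 lost the call in at least 1. Genes with few counts are limited by depth, as their intervals show.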

Other observations

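Genes better known from neurons differed in single members. Of 38 neuronal and secretory granule genes tested, 5 were higher (13.2%) and 3 lower (7.9%) in resistant tumours, with a median log2 of 0.00. Of all genes tested 8.66% were higher and 11.5% lower. RIMS2, which tethers vesicles at release sites, was at 34.2, 51.7, 35.5 and 53.6 CPM in resistant tumours, against 19.5, 6.08, 11.6 and 5.25 CPM in parental tumours (log2 2.05, SE 0.31, adjusted p = 3.07e-05), and L1CAM, a neural adhesion molecule also made by carcinomas, was at 76 ± 13 CPM in resistant tumours and 26.8 ± 5.84 CPM in parental tumours (log2 1.50, SE 0.19, adjusted p = 1.2e-06). TENM1, a teneurin, had 0 counts in the resistant group as a whole and 90 in the parental one, and was at least 29.5-fold lower. Of 44 semaphorins, plexins, ephrins, their receptors and other guidance genes 8 were higher (18.2%) and 9 lower (20.5%). ROBO2, a receptor for SLIT proteins, was at 0.243, 0.507, 0.452 and 0.904 CPM in resistant tumours, against 6.72, 10.6, 10.0 and 10.9 CPM in parental tumours (log2 -4.11, SE 0.43, adjusted p = 8.04e-08), and PLXNA2, a plexin named after its values were seen, rose by 1.09 (SE 0.29).

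Of 64 channel genes 8 were higher (12.5%, against 8.66% of all genes tested) and 11 lower (17.2%, against 11.5%). GABRE, a subunit of the GABA-A receptor, had 0 counts in the resistant group as a whole and 115 in the parental one, and was at least 37.7-fold lower. KCNU1, a potassium channel of sperm, had 95 counts in the resistant group as a whole and 1 in the parental one. Of 12 cancer-testis genes tested 6 were higher and 3 lower. MAGEC2 was at 76.7, 88.2, 64.7 and 81.1 CPM in resistant tumours, against 19.5, 5.00, 10.3 and 13.5 CPM in parental tumours (log2 2.69, SE 0.32, adjusted p = 8.02e-07), SPANXD at 89.8 ± 14.8 CPM in resistant tumours and 11 ± 6.7 CPM in parental tumours (log2 3.03, SE 0.40, adjusted p = 7.89e-06). PNMA5, chosen after its values were seen, was at 261.0 and 28.7 CPM in resistant vehicle 1 and 3 and at 0 in the other 6 libraries.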
